A study of Mus musculus with 8 samples.

Results

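The genes of 10 T cell surface proteins were followed in sorted dendritic cells: Cd4, Cd5, Cd6, Cd7, Icos, Cd28, Btla, Cd2, Cd226 and Cd96. Each was taken as the probe set whose annotation names that gene alone, and where a gene had several probe sets the one to use was chosen by its mean log2 intensity over all 8 arrays. All 10 members were measured, of 19938 genes in all, and each had 1 probe set, so brightness decided nothing. The list was proposed with earlier results of these data in view, so the tests below describe these genes and are no independent support for the choice of list. Gene expression was measured on Affymetrix mogene 1.0 ST arrays, with 4 arrays of myeloid dendritic cells from bone marrow and 4 of spleen classical dendritic cells. All mice were CX3CR1-gfp/+, with a fluorescent reporter in 1 Cx3cr1 allele, and 8 weeks old, and none was treated. Each of 4 mice gave both a marrow and a spleen array, which carry its replicate number. Which surface markers the sorts used is not stated in the labels.

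T cells use these receptors while they read antigen on another cell. Cd4 holds the class II molecule beside the T cell receptor, Cd28 and Icos add costimulation, Btla and Cd5 damp the signal, and Cd2, Cd6, Cd226 and Cd96 bind partners on the facing cell. Dendritic cells are usually on the other side of that contact, yet some of these proteins also mark them: Cd4 is a classical marker of many cDC2 cells of the mouse spleen, cDC2 being the subset marked by Sirpa, and Btla is found on dendritic cells too. B cells, natural killer cells and plasmacytoid dendritic cells carry several of them as well.

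Values are the deposited linear intensities, and a group level is the geometric mean of 4 arrays. Array medians lay between 125 and 135. Log2 values of arrays of 1 tissue correlated across genes with Pearson's r from 0.991 to 0.996, and arrays of different tissues with r from 0.968 to 0.976, which only describes the arrays because genes are not replicates. No detection call came with the values, so for scale the 1027 olfactory receptor genes (Olfr) were read on the same arrays. Their median level was 27.4 in bone marrow and 28.0 in spleen, and 99% of them lay below 148 in bone marrow and 153 in spleen. A difference in a gene that is dim in 1 tissue is compressed toward 0 by the signal under it. The class II gene H2-Ab1 had levels of 15354 in marrow and 14678 in spleen, and Itgax, which encodes CD11c, had 6409 and 8432. Both markers of dendritic cells were thus bright in both tissues, but Itgax was lower in marrow (limma adjusted p = 0.0024). Of 10 genes common to classical dendritic cells, these 2 among them, 6 were lower in marrow and none was higher. The largest differences were in Kit (289 in marrow and 3637 in spleen), Spint1 (172 and 2064), Zbtb46 (214 and 520) and Flt3 (1967 and 4078). The summed intensity of 12 neutrophil genes ran from 21871 to 29944 in marrow and from 1851 to 2591 in spleen, and 11 of the 12 were higher in marrow. So were all 11 measured genes of monocytes and macrophages, whose sum ran from 34095 to 43106 in marrow and from 6362 to 7505 in spleen. Their part in the differences below was not tested. In RNA pooled from sorted cells, fewer cells that carry a transcript cannot be told apart from less of it per cell.

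Most of the 10 genes stood lower in bone marrow than in spleen. Of these, 7 (Cd7, Icos, Cd4, Cd5, Btla, Cd2 and Cd6) were lower at an adjusted p under 0.05 in limma, where 9.2% of all genes were lower. One, Cd226, was higher, where 9.26% of all genes were higher. Cd96 and Cd28 did not pass. The 4 bone marrow arrays lay below all 4 spleen arrays for the same 7 genes (10.2% of all genes) and above them for Cd226 (10.4% of all genes). The median log2 difference over the 10, bone marrow minus spleen, was -1.12, against -0.0071 over all genes. Since the list was proposed with such results known, nothing is read from its share against these backgrounds. The 8 calls and their directions held under all 15 alternative settings tried.

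**Figure D1:**
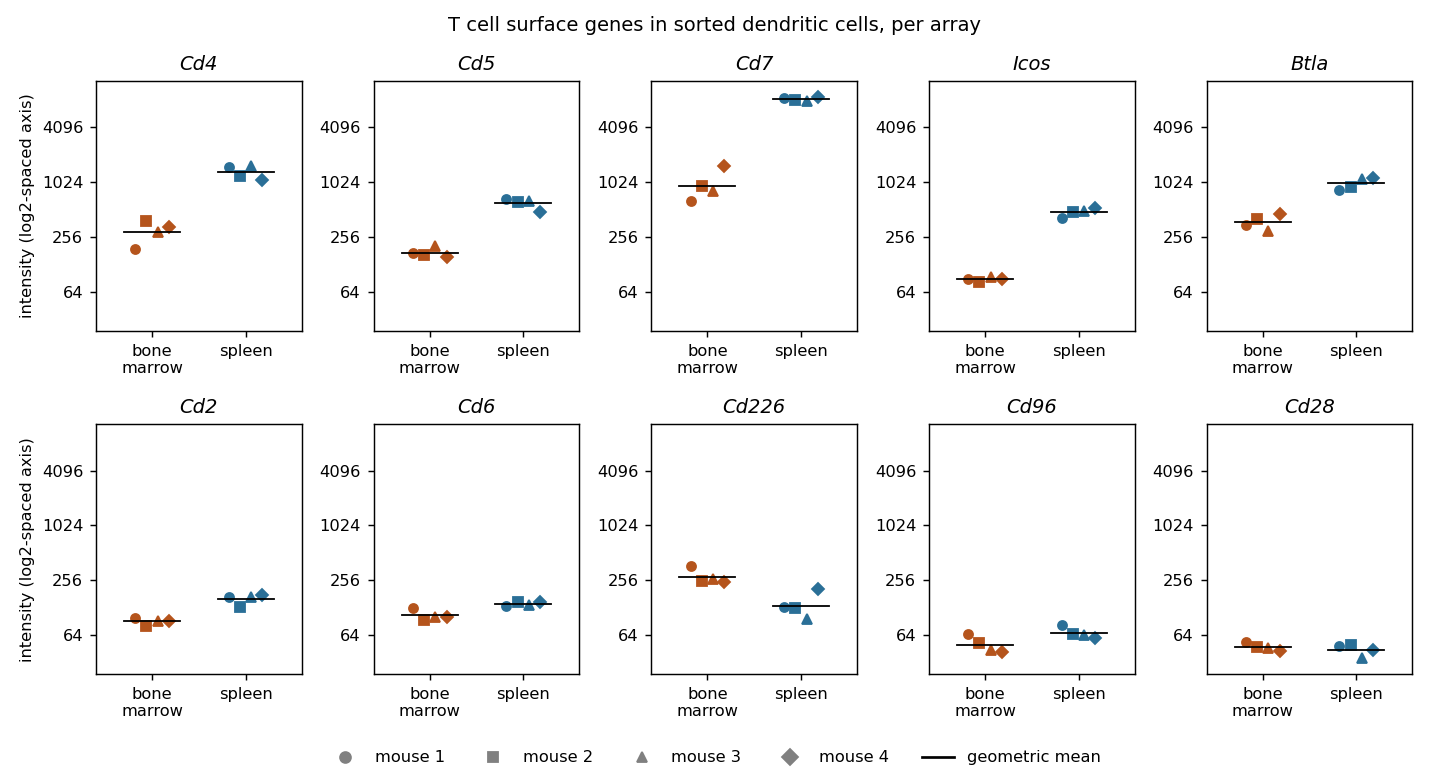
Intensity of each of the 10 genes on every array (vertical axis log2-spaced, the same in all panels), with bone marrow in orange and spleen in blue. Marker shapes are the 4 mice and black lines the geometric means of 4 arrays. The tissues are clear of each other for Cd4, Cd5, Cd7, Icos and Btla, close for Cd6, reversed for Cd226 and overlapping for Cd96 and Cd28.

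RefSeq windows around the transcription start, 250 bases before to 50 after in build GRCm38.p6, are shown for 3 of the 10 genes. Of these, 2, Cd5 and Btla, were lower in bone marrow while Cd96 did not pass the test. Any window on the chromosome of Cd226, the gene higher in bone marrow, was left out of the search, so the 3 are not a full set. The Cd5 window is chr19:10738925-10739224 on the minus strand, that of Btla chr16:45224087-45224386 on the plus strand and that of Cd96 chr16:46120199-46120498 on the minus strand. Capitals mark matches, on either strand, to 4 short motifs: TGTGGT (RUNX), GAGGAA (ETS), TGGGAA (RBPJ, the factor of Notch signalling) and CANNTG (E-box).
Cd5: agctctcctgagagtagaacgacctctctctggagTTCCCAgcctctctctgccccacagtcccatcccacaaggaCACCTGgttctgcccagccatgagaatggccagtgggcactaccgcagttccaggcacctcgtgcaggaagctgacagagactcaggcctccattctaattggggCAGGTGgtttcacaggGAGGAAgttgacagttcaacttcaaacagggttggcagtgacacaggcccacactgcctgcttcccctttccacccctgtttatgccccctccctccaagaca
Btla: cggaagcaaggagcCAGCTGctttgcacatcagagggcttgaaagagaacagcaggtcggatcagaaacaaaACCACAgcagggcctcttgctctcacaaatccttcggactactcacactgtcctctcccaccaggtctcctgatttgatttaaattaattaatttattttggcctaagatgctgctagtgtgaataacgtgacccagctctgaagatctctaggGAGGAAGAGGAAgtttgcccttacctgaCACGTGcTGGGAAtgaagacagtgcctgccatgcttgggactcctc
Cd96: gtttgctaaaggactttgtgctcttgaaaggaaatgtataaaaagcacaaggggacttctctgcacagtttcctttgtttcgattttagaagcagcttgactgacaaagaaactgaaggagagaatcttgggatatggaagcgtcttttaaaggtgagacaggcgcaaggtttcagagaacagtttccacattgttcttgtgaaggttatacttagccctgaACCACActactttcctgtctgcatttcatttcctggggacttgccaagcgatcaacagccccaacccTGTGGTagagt

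The Cd5 window held 1 ETS match, beginning 53 bases before the start, with 1 RBPJ match and 2 E-boxes. Btla held 2 adjoining ETS matches beginning 24 and 18 bases before the start, with 1 RUNX match, 1 RBPJ match and 2 E-boxes. Cd96 held 2 RUNX matches and none of the other motifs. Of 32851 such windows in the table, 28.3% held the ETS letters, 25.6% the RBPJ letters, 16.8% the RUNX letters and 72.3% an E-box. These are matches of letters and say nothing of binding.

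Cd4, the co-receptor that binds class II molecules and brings the kinase Lck to the T cell receptor, was dimmer in marrow than in spleen. It stood at 190.1, 388, 290.5 and 328 in bone marrow replicates 1 to 4, and at 1521, 1200.2, 1553 and 1091 in spleen. Every spleen array was above every bone marrow array, and the lowest spleen value was 2.81-fold above the highest bone marrow value. The level was 4.58-fold lower in bone marrow (log2 difference -2.20 ± 0.19 SE, n = 4 per tissue, limma adjusted p = 2.4e-06). Within a mouse the log2 difference ran from -3.00 in mouse 1, whose bone marrow array was the lowest, to -1.63 in mouse 2, whose bone marrow array was the highest. The class II chains that Cd4 binds, H2-Ab1, H2-Aa and H2-Eb1, had log2 differences of 0.07, 0.01 and 0.06, with 95% intervals of -0.09 to 0.22, -0.13 to 0.16 and -0.10 to 0.22.

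Cd5 and Cd6 encode related receptors with scavenger receptor cysteine-rich domains. Cd5 restrains signals of the antigen receptor in T cells and in the B-1 subset of B cells, and Cd6 binds the adhesion molecule Alcam. Cd5 stood at 171, 162, 203 and 154 in bone marrow and at 669, 629, 639 and 484 in spleen, with the groups well apart. It was 3.50-fold lower in bone marrow (log2 difference -1.81 ± 0.12 SE, n = 4 per tissue, limma adjusted p = 1.9e-07), with log2 differences within the 4 mice from -1.96 to -1.65. Cd6 stood at 128, 93.1, 102 and 101 in bone marrow and at 133, 147, 136 and 148 in spleen. The groups only just cleared each other: bone marrow replicate 1 lay within 1.04-fold of the lowest spleen array. Cd6 was 1.34-fold lower (-0.42 ± 0.10, limma adjusted p = 0.0091), and both group levels, 105 and 141, lay within the range of the olfactory receptor genes. Alcam, the partner of Cd6, was bright in both tissues, with levels of 1855 in marrow and 1681 in spleen (0.14, 95% interval -0.02 to 0.30, limma adjusted p = 0.25).

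Icos and Cd28 are sister receptors of the costimulatory family, of which Icos passed the test and Cd28 did not; the difference between them was not tested. Icos, the inducible costimulator of activated and follicular helper T cells, stood at 87.5, 81.2, 94.2 and 87.5 in bone marrow and at 411, 483, 495 and 532 in spleen. Its marrow arrays were tightly grouped, 1.16-fold from lowest to highest, and at a level that 93.5% of olfactory receptor genes lay under, whereas 99.9% lay under its spleen level. It was 5.46-fold lower in bone marrow (log2 difference -2.45 ± 0.09 SE, n = 4 per tissue, limma adjusted p = 1.7e-09), and the lowest spleen array was 4.37-fold above the highest marrow array. Cd28, the main costimulatory receptor of naive T cells, stood at 53.7, 46.7, 45.7 and 42.6 in bone marrow and at 48.2, 49.2, 35.5 and 44.3 in spleen. The tissues overlapped, and the difference was 0.10 ± 0.11 (95% interval -0.14 to 0.34, limma adjusted p = 0.70). In both tissues Cd28 lay within the range of the olfactory receptor genes, 75.1% of which were dimmer in bone marrow and 71.3% in spleen, so whether it was expressed at all is unknown.

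The partners of these 2 receptors are proteins of dendritic cells themselves, and they were lower in bone marrow too. Icosl, the ligand of Icos, had a level of 648 in marrow against 1317 in spleen (log2 difference -1.02 ± 0.09 SE, n = 4 per tissue, limma adjusted p = 4.6e-06). Cd80 and Cd86, the ligands of Cd28, had levels of 393 and 1121 in marrow against 947 and 1860.1 in spleen (-1.27 and -0.73, limma adjusted p = 1.9e-06 and 0.00037). Icos and its ligand were therefore both lower in the marrow arrays, while Cd28 was dim beside ligands that differed.

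Btla, the B and T lymphocyte attenuator, an inhibitory receptor that binds Tnfrsf14, stood at 349, 406, 295 and 459.7 in bone marrow and at 846, 908, 1108 and 1139.9 in spleen. All spleen arrays were above all bone marrow arrays, by at least 1.84-fold. It was 2.67-fold lower in bone marrow (log2 difference -1.41 ± 0.14 SE, n = 4 per tissue, limma adjusted p = 8.2e-06). Its level was above that of 99.9% of the olfactory receptor genes in bone marrow, so its transcript was dimmer there without reaching their usual range. Tnfrsf14, its partner, went the other way, from 889 in spleen to 1203 in bone marrow (0.44 ± 0.08, limma adjusted p = 0.0016).

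Cd7, a small immunoglobulin-family receptor of T cells, natural killer cells and early lymphoid progenitors, stood at 641, 922, 828 and 1533 in bone marrow and at 8537, 8257, 8002 and 8814 in spleen. Spleen arrays differed from each other by no more than 1.10-fold, and bone marrow arrays by 2.39-fold, with replicate 4 the highest and replicate 1 the lowest. Cd7 was 9.02-fold lower in bone marrow (log2 difference -3.17 ± 0.20 SE, n = 4 per tissue, limma adjusted p = 1.4e-07), and within a mouse the log2 difference ran from -3.74 in mouse 1 to -2.52 in mouse 4. Its known partners of the Sectm1 family did not pass the test. In both tissues these 2 genes lay below the level that 95% of olfactory receptor genes lay under, 95.9 in marrow and 96.6 in spleen. Whether they were expressed at all is thus unknown. Sectm1a stood at 88.1 and 68.1 (0.37, 95% interval 0.11 to 0.64, limma adjusted p = 0.054), and Sectm1b at 86.4 and 91.4 (-0.08, 95% interval -0.32 to 0.16). Sectm1a passed in limma under 4 of the 14 alternatives that kept it, with a replicate block for the mouse (adjusted p = 0.043), an intensity trend (0.049), without spleen replicate 2 (0.015) and without spleen replicate 3 (0.042).

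Cd2 is an adhesion receptor of T cells and natural killer cells whose partner in mice is Cd48. It stood at 99.04, 80.5, 92.1 and 90.5 in bone marrow and at 167, 131, 169 and 177 in spleen, and no array of the 2 tissues crossed. Cd2 was 1.77-fold lower in bone marrow (log2 difference -0.82 ± 0.10 SE, n = 4 per tissue, limma adjusted p = 8.3e-05), from levels that 93.8% of olfactory receptor genes lay under in bone marrow and 99.2% in spleen. Cd48 was bright and moved the other way, from 3123 in spleen to 4059 in bone marrow (0.38 ± 0.08, limma adjusted p = 0.0056).

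Cd226 and Cd96 compete for the nectin-like ligand Pvr, with Cd226 as an activating and Cd96 largely as an inhibitory receptor of T and natural killer cells. Cd226 was the 1 gene of the 10 that rose in bone marrow. It stood at 366, 248, 267 and 248 there and at 131, 126, 95.7 and 204 in spleen. The tissues did not overlap, though spleen replicate 4 stood 1.75-fold above the mean of the other 3 spleen arrays and came within 1.21-fold of the lowest marrow array. Cd226 was 2.08-fold higher in bone marrow (log2 difference 1.06 ± 0.19 SE, n = 4 per tissue, limma adjusted p = 0.0017), and within mice the log2 difference was 1.48, 0.98, 1.48 and 0.28 for mice 1 to 4. Its spleen level, 134, lay within the range of the olfactory receptor genes, 98.15% of which were dimmer there, against 99.9% in bone marrow. Cd96 stood at 65.4, 51.8, 43.8 and 41.6 in bone marrow and at 83.1, 65.6, 63.4 and 59.1 in spleen. Its tissues overlapped, because bone marrow replicate 1 was above spleen replicates 3 and 4, but within each of the 4 mice the spleen array was the higher, with log2 differences from -0.53 to -0.34. Cd96 had a difference of -0.43 ± 0.14 (limma adjusted p = 0.055), which passed the threshold with a replicate block for the mouse (adjusted p = 0.0060), with an intensity trend (0.047), with array weights (0.035), without bone marrow replicate 1 (0.0079) and without spleen replicate 4 (0.043), and ranged up to 0.16 over the alternatives.

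The ligands split as well. Pvr had a level of 247 in marrow against 175 in spleen (log2 difference 0.49 ± 0.13 SE, n = 4 per tissue, limma adjusted p = 0.019). It missed the threshold in limma when marrow replicate 4 was left out (adjusted p = 0.058). Nectin2, the other ligand of Cd226, stood at 104 and 101 (0.03, 95% interval -0.17 to 0.23). Both levels lay within the range of the olfactory receptor genes, 99% of which lay below 148 in marrow and 153 in spleen. Nectin1, which mouse Cd96 also binds, was 2.08-fold lower in bone marrow (-1.06 ± 0.17, limma adjusted p = 0.00062). Cd72, named as a partner of Cd5, had levels of 749 and 677 (0.15, limma adjusted p = 0.77). Of all 15 measured ligands and counter-receptors, 3 were higher in bone marrow and 4 lower, with a median log2 difference of 0.06.

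**Figure D2:**
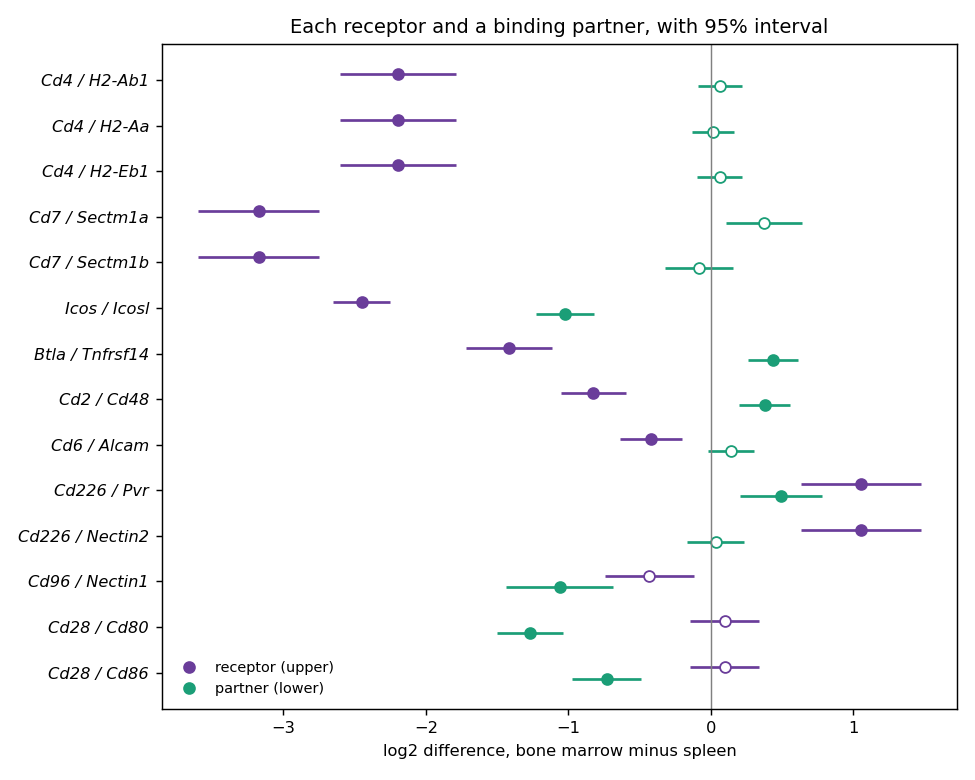
Log2 difference (bone marrow minus spleen) with its 95% interval for each receptor except Cd5 (purple, upper) and a binding partner (green, lower), filled where the limma adjusted p was under 0.05. Cd5 and Cd72 are not drawn. Icos and Icosl lie on the same side of 0, as do Cd226 and Pvr, while Btla and Tnfrsf14 or Cd2 and Cd48 lie on opposite sides.

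Genes that define T cells were read beside them. Of 17 measured T cell marker genes, 7 were lower in bone marrow, none was higher and 10 did not pass, with a median log2 difference of -0.21. The 7 counted 4 without bone marrow replicate 2 and also 4 without bone marrow replicate 3, and between 4 and 8 over the arrays left out 1 at a time. Cd3g, a chain of the T cell receptor complex, had levels of 70.3 in marrow and 141 in spleen (-1.002 ± 0.25 SE, n = 4 per tissue, limma adjusted p = 0.012). Its 4 spleen arrays were 211, 113, 185 and 89.2 and its marrow arrays 87.2, 65.8, 51.1 and 83.4. Cd8b1, Cd3d and Il7r, the receptor of a survival cytokine, had differences of -0.89, -0.65 and -0.63. Cd8b1 missed the threshold in limma when marrow replicate 2, marrow replicate 3 or spleen replicate 3 was left out (adjusted p = 0.053, 0.058 and 0.057). Cd3e stood at 164 and 206 (-0.33 ± 0.10, limma adjusted p = 0.039). It missed the threshold in limma in 5 of 8 leave-out fits, those dropping marrow replicate 2, 3 or 4 and spleen replicate 1 or 2 (adjusted p from 0.057 to 0.12), and after quantile normalization (0.055). Zap70, the kinase of the receptor complex, stood at 117 and 133 (-0.19, 95% interval -0.45 to 0.08).

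Summed over the 17 genes, the T cell marker intensity ran from 1547 to 2037 in marrow and from 2039.7 to 2417 in spleen, a ratio of mean sums of 1.29, spleen over bone marrow. Cd3d, Cd3g and Zap70 lay in both tissues below the level that 99% of olfactory receptor genes lay under, and Cd3e lay above it. Lck and Tcf7 were not analysed here. The part of T cells in the differences of the 10 genes was not tested.

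**Figure D3:**
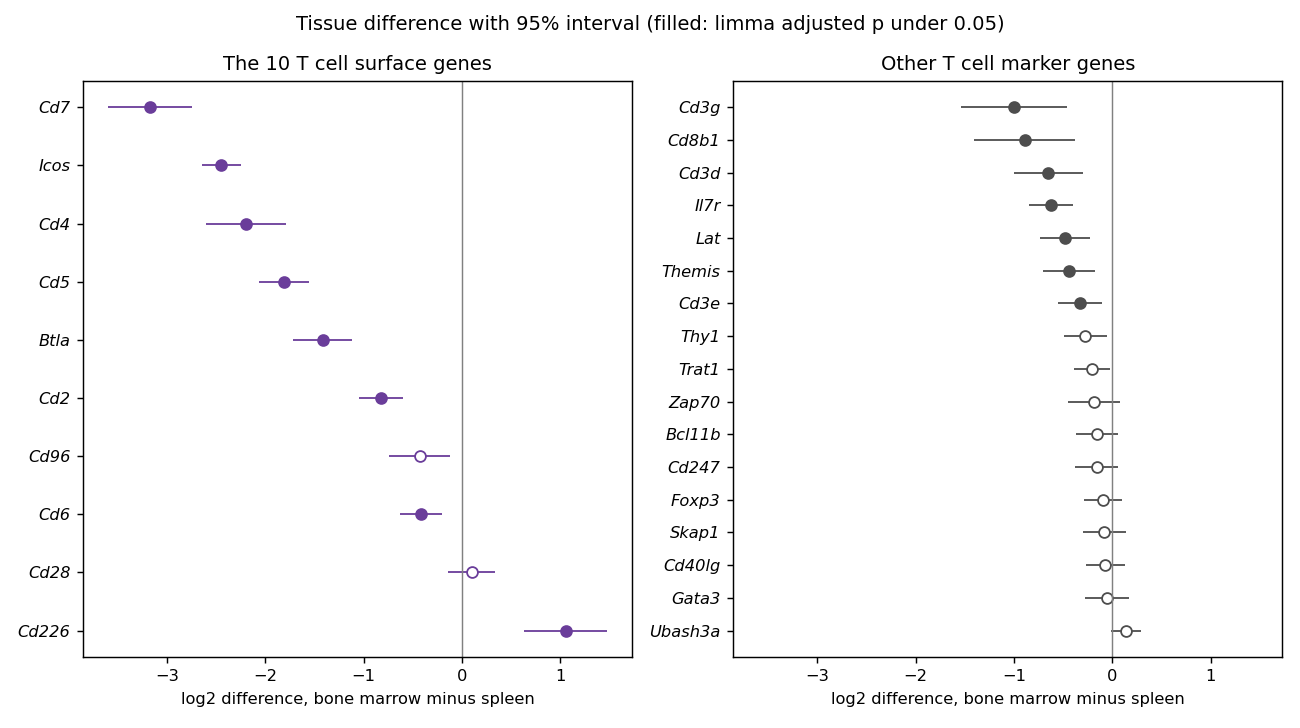
Log2 difference (bone marrow minus spleen) with its 95% interval for the 10 T cell surface genes (left) and the 17 T cell markers (right), on the same horizontal scale, filled where the limma adjusted p was under 0.05. Cd7, Icos, Cd4, Cd5 and Btla lie at -1.41 or below. Differences of dim genes, among them Cd3d, Cd3g and Zap70, are compressed toward 0, so the panels give no ranking between the lists.

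Other cells that carry these receptors showed mixed shifts. Of 12 natural killer genes, 3 were lower in bone marrow (Klrd1, Klre1 and Fasl) and 1 higher (Klrk1), and the 1 became 2 without bone marrow replicate 2 while the 3 became 1 with the dimmest 40% of genes left out. Their summed intensity ran from 1850.2 to 2694 in marrow and from 2907 to 3651 in spleen. Klrd1, a lectin-like receptor chain, had levels of 661 in marrow and 1818 in spleen. Ncr1, which defines these cells and was picked after its values were seen, had levels of 49.2 and 48.0. Of 11 B cell genes, 7 were lower and 1 higher, with a sum from 2706 to 3387 in marrow against 4196 to 5188 in spleen. Cd22 was 5.10-fold lower and Ms4a1 4.10-fold lower, while the adaptor Blnk was 4.24-fold higher. Of 10 plasmacytoid dendritic cell genes, 4 were lower and 2 higher, with a sum from 4132 to 5234 in marrow against 3503 to 4061 in spleen. The sum leans on Bst2, the brightest of them, with levels of 2536 in marrow and 1478 in spleen. Siglech went the other way, with levels of 173 and 218 (limma adjusted p = 0.028). Bst2 and Siglech were picked after values were seen. Ccr9 was 2.74-fold and Spib 2.53-fold lower, and Upb1 was 2.51-fold higher. Their part in the levels of Cd2, Cd4, Cd5, Cd7 and Btla was not tested.

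The families of the 10 genes went both ways. Of 19 measured relatives, 7 were lower in bone marrow, 3 were higher and 9 did not pass. Cd8a, the other co-receptor of T cells and a marker of the cDC1 subset, was 4.07-fold lower (log2 difference -2.02 ± 0.13 SE, n = 4 per tissue, limma adjusted p = 1.9e-07). Slamf6, of the family of Cd48, was 2.62-fold lower, and its relative Cd84 was 7.05-fold higher. Cd163, a scavenger receptor of macrophages with the same kind of domain as Cd5, was 3.63-fold higher. Of 18 signalling partners, 6 were higher and 1 lower in bone marrow, with log2 differences of 0.62 for the phosphatase Ubash3b, 0.56 for the adaptor Grap2 and 0.52 for the exchange factor Vav1. The 1 lower, Pik3cg, did not pass without bone marrow replicate 3.

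Several of the 10 genes lie beside relatives in the genome, and the neighbours did not share 1 direction. These neighbours were chosen after values were seen, from the order of protein-coding genes in RefSeq GRCm38.p6 that had a value here. A neighbour is thus the nearest measured gene, and genes without a value may lie between. Ctla4 lies between Cd28 and Icos, and had levels of 57.1 in marrow and 57.4 in spleen (95% interval of the log2 difference -0.19 to 0.17). Of these 3 genes in a row only Icos passed the test. In both tissues Ctla4 lay below the level that 95% of olfactory receptor genes lay under, 95.9 in marrow and 96.6 in spleen. Whether Ctla4 was expressed at all is thus unknown. Cd5 and Cd6 are neighbours that both passed, by 3.50-fold and 1.34-fold, but the genes on either side, Vps37c and Slc15a3, had a log2 difference of -0.09 (limma adjusted p = 0.60) and were 2.16-fold higher in bone marrow. Lag3, which encodes another class II receptor of T cells, lies next to Cd4 and was lower with it. Its levels were 85.6 in marrow and 167 in spleen (-0.96 ± 0.10 SE, n = 4 per tissue, limma adjusted p = 1.9e-05). The marrow level of Lag3 was also below 95.9, within the range of the olfactory receptor genes. Gpr162 on the other side of Cd4 had a difference of 0.16 (limma adjusted p = 0.46). Beside Btla, Cd200 was 2.35-fold lower and Atg3, on the other side, 1.28-fold lower. Cd7 lies between Csnk1d, with a difference of -0.05, and Sectm1b, described above.

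**Figure D4:**
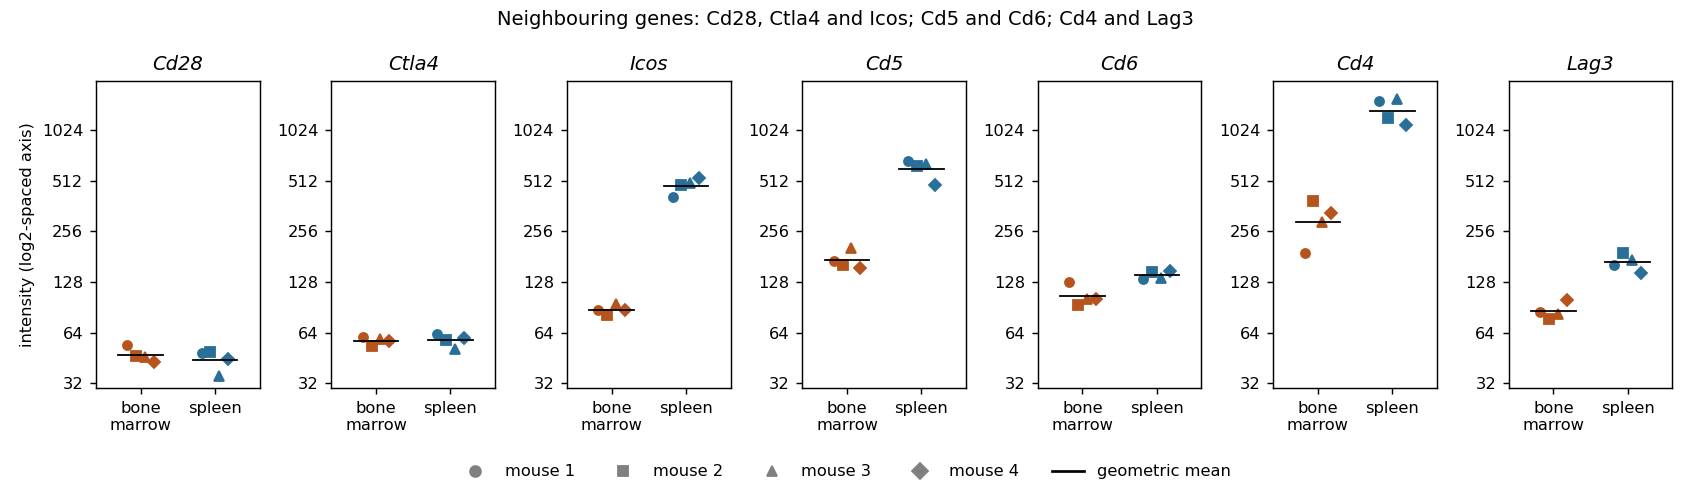
Intensity per array (log2-spaced axis, the same in all panels) of 3 sets of neighbouring genes, in bone marrow (orange) and spleen (blue), with mice as marker shapes and geometric means as lines. Icos is raised in spleen beside Ctla4 and Cd28, which are dim in both tissues, Cd5 far more than Cd6, and Lag3 together with Cd4.

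The spleen arrays were not all alike, and the genes parted into different orders there. In spleen replicate 4, Cd4 and Cd5 were each at their lowest among the spleen arrays, with log2 differences from the mean of the other 3 spleen arrays of -0.38 and -0.42. In the same array Btla, Icos and Cd7 were each at their highest, with differences of 0.27, 0.20 and 0.09. Of the 10 genes, 6 were highest and 3 lowest in this array, where 27.2% of all genes were highest and 27.1% lowest. Markers of the 2 dendritic subsets also moved in it. Xcr1, the chemokine receptor of cDC1 cells, stood at 1559, 1651, 976 and 2481 in spleen replicates 1 to 4, and Esam, an adhesion molecule of cDC2 cells, at 474, 497, 449 and 334. Both were picked after values were seen. Of 10 cDC2 markers 9 were lowest in spleen replicate 4, and of 10 cDC1 markers 5 were highest and 2 lowest (Wdfy4 and Batf3). The low values were not particular to cDC2 markers. Of 10 genes common to both classical subsets, none was highest in that array and 6 were lowest. Of 11 B cell genes 1 was highest and 6 were lowest, and of 18 signalling partners 2 were highest and 11 lowest. Of the 12 natural killer genes, 9 were highest in that array and 2 lowest, and of the 17 T cell markers none was highest and 10 were lowest. With 4 arrays no correlation was computed, and whether the subset mix accounts for these orders was not tested. Without spleen replicate 4, the log2 differences of Cd4, Cd5, Cd7, Icos and Btla between tissues were -2.29, -1.91, -3.15, -2.40 and -1.35, all still past the threshold.

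**Figure D5:**
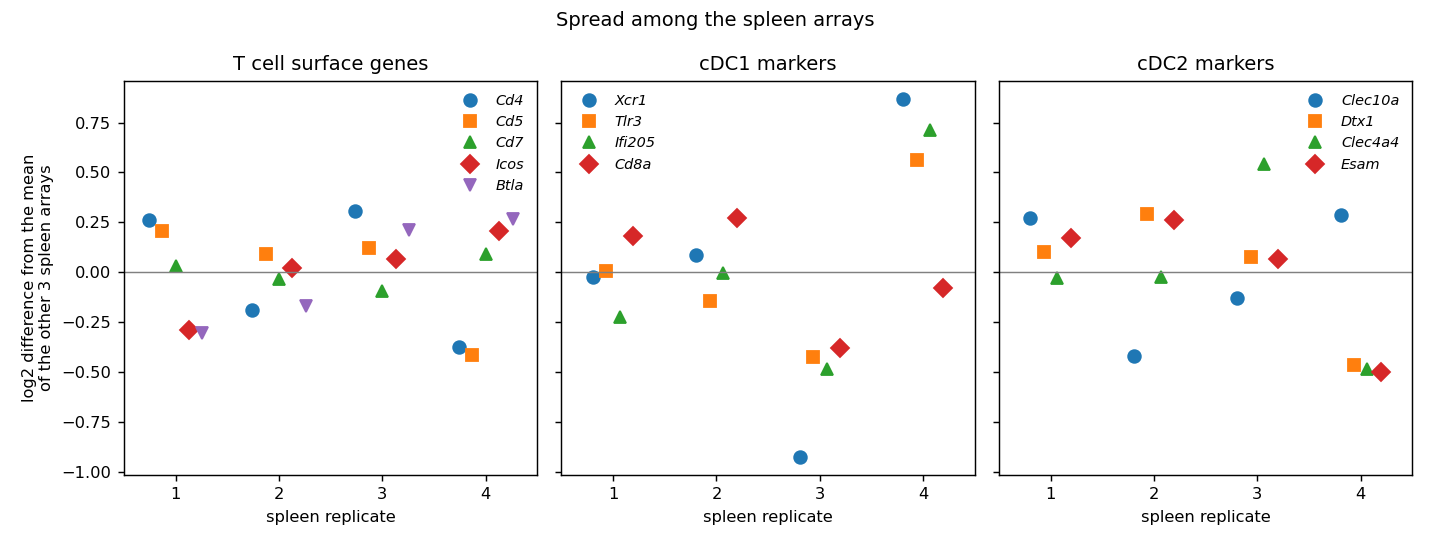
Log2 difference of each spleen array from the mean of the other 3 spleen arrays (vertical axis), by replicate, for 5 of the surface genes, 4 cDC1 markers and 4 cDC2 markers. In replicate 4, Cd4 and Cd5 lie below 0 with the cDC2 markers Esam (-0.50) and Dtx1 (-0.47), Btla and Icos lie above 0 with Xcr1 (0.87) and Tlr3 (0.56), and Cd8a (-0.08) and Clec10a (0.28) go against their sets. Of all 10 cDC1 markers, 5 were highest and 2 lowest in replicate 4. The 2 lowest, Wdfy4 (-0.61) and Batf3 (-0.28), are not drawn.

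Genes with the most similar patterns over the 8 arrays were found for the 6 surface genes whose difference exceeded 1 on the log2 scale, among 17039 genes, by the root mean square difference of gene-centred log2 values (smaller is closer). The tissue difference itself dominates this measure, and it says nothing of shared function. Cd4 lay closest to P2ry10, Tespa1 and Gpr157, at 0.19, 0.21 and 0.22. Cd5 lay closest to Gabbr1, at 0.092, then Slc6a12 and Slc8a2. Nearest to Icos was Rras2, at 0.11, then Serpinb6b and Nedd4. For Btla they were Ap1s3, Klrd1 and Adgrg6, at 0.097, 0.11 and 0.14. Cd7 was less closely matched, by Tbc1d4, Ltb and Mreg at 0.24 to 0.25, and Ltb, which encodes the cytokine lymphotoxin beta, had levels of 397 in marrow and 3538 in spleen. Cd226 was matched by Litaf, Crip1 and Fxyd5 at 0.20 to 0.21.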

How the data were processed

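The authors deposited 1 linear intensity per probe set and array, and per the submitters' processing notes the software was Expression Console 1.4 of Affymetrix. No source used here states how they were normalized. Of 35556 probe sets, 21789 had 1 gene symbol, 1621 several and 12146 none; the brightest per gene over all arrays was kept, giving 19938 genes. Log2 intensities were fitted with limma 3.58.1 (lmFit, eBayes) in R 4.3.3, bone marrow minus spleen, 4 arrays per tissue, with no filter, and p-values were Benjamini-Hochberg adjusted over all genes (threshold 0.05). The number of arrays limits the precision. The code was tested on simulated data.

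Paired samples came from the same mouse, per the labels; the deviations of paired arrays from their tissue means correlated at 0.096, -0.088, -0.178 and -0.054, and the mouse was a block in 1 alternative. The other alternatives were quantile normalization, median centring, leaving out the dimmest 40% of genes, averaging probe sets, an intensity trend, array weights and leaving out each array. Named genes are the surface genes, up to 4 called genes of largest difference per list, core T cell genes, all partners and the 3 nearest patterns; exceptions are stated. The members and lists were chosen with earlier results of these data known.

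Of 10 genes common to both classical subsets, 6 were lower and none higher in bone marrow. Of 10 cDC1 markers, 6 were lower and 1 higher, and of 10 cDC2 markers, 3 were lower and 4 higher.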

Additional observations from a re-analysis of the deposited data

How the results depend on the processing

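The surface genes were recomputed under 15 alternative settings. The count lower in bone marrow was 7 or 8, the eighth being Cd96, and the count higher was 1 throughout. Over all genes the count lower ran from 1468 to 1955 and the count higher from 1608 to 1928. With the mouse as a replicate block, 1661 genes were lower and 1717 higher, 8 surface genes were lower and 1 higher, and 7 T cell markers were lower. The T cell markers lower in bone marrow ranged from 4 to 8 when single arrays were left out, with 4 without bone marrow replicate 2 or 3.

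Of 1130 values of 76 named genes under alternatives, 1100 kept direction and side of the threshold, 11 lost a call (Cd3e, Cd8b1, Pvr and Cblb), 9 gained one and 10 changed sign. The sign changes were in genes near 0. H2-Aa was -0.030 with quantile normalization, Ctla4 was 0.0015 with quantile normalization and 0.0031 with median centring, and Nectin2 was -0.0039 with array weights. With single arrays left out, Cd28 ranged from -0.0038 to 0.15, Nectin2 from -0.038 to 0.090, Cd72 from -0.024 to 0.36 and Ctla4 from -0.064 to 0.032; the cause was not tested. Cd96 and Cd28 have no value with the dimmest 40% of genes left out. Without detection calls, signal over background is unknown, which limits Cd28, Cd96, Cd6 and Cd2 most, and also Cd226 in spleen and Icos in bone marrow.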

Other observations

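The bone marrow arrays also differed among themselves. Cd7 was highest in bone marrow replicate 4 and lowest in replicate 1, with log2 differences from the mean of the other 3 bone marrow arrays of 0.96 and -0.72. Cd4 was lowest in replicate 1 as well, at -0.81, but highest in replicate 2, at 0.56. Xcr1, picked after values were seen, stood at 108, 172, 119 and 179 in bone marrow replicates 1 to 4, so its lowest array was also that of Cd4 and Cd7. Its bone marrow level, 141, lay below the 148 that 99% of olfactory receptor genes lay under. Over the 10 cDC1 markers the median log2 difference in replicate 1 was -0.17, but Clec9a was highest there, at 0.18. Cd226, Cd96, Cd28, Cd2 and Cd6 were also highest in replicate 1, the array in which the 17 T cell markers had their highest bone marrow sum, 2037. The share of all genes highest in this array was not computed, so nothing is read from that number of genes. Its median intensity, 134.6, was also the highest of the 4 bone marrow arrays. These orders are over 4 arrays and were not tested.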
